A study of Rattus norvegicus with 20 samples.

Results

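The genes described here are 10 parts of the contractile apparatus of smooth muscle, measured in rat gastrocnemius: Myh11, Acta2, Actg2, Tagln, Cnn1, Myl9, Lmod1, Smtn, Mylk and Synpo2. They are 10 of the 32495 named gene rows of the count table. They were chosen by symbol because Myh11 and Acta2 had lower levels in both chemotherapy arms than in rats without chemotherapy, so the values of those comparisons chose them and are given as a description. A total of 9 of the 10 passed the filter on low counts, which left 11716 genes for the fit, and Cnn1 did not. Gastrocnemius of female Fischer 344 rats was sequenced as rRNA-depleted total RNA in 20 libraries. Every rat, controls included, carried a Ward colorectal carcinoma that had grown for 2 weeks before chemotherapy began in the treated arms, and an animal without a tumour was not analysed here. TUMOUR STD rats (5 libraries) ate the standard diet and received no chemotherapy. CHEMO STD rats (7 libraries) ate the standard diet and received 2 cycles of CPT-11 (irinotecan), each followed a day later by 5-FU (5-fluorouracil) at 50 mg/kg. CHEMO FO rats (8 libraries) received the same drugs and were switched, when chemotherapy began, to a diet containing fish oil, the source of EPA and DHA. The last cycle ended 7 days before the gastrocnemius was taken. The age of the rats is stated without a unit, as 11 to 12 at assignment.

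Smooth muscle shortens when calcium and calmodulin switch on a dedicated kinase, which phosphorylates the regulatory light chain of a smooth muscle myosin that then pulls on actin filaments. Serum response factor, bound to A/T-rich CArG boxes and helped by its coactivator myocardin, keeps the genes of this machinery on. In skeletal muscle these cells wrap arteries and arterioles, set the calibre of the vessels and so the flow of blood to the fibres, and many of the same genes are lost when the cells leave their contractile state. Synpo2 is also a Z-disc protein of striated muscle, and the bulk libraries do not separate the cells a transcript came from. In such samples fewer cells of a type and less RNA per cell cannot be told apart.

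RefSeq (build GRCr8) gave windows of 250 bases before to 50 after the start for 6 of the 10 genes, namely Acta2, Actg2, Cnn1, Mylk, Smtn and Synpo2. The CArG box was searched for as CC, 6 bases of A or T, then GG, a pattern that reads alike on both strands. None of the 6 windows held it, against 548 of 33469 windows in all (1.64%). The search was then widened, after that result was seen, to allow 1 G or C among the 6 middle bases, and 1 of the 6 windows, that of Acta2, held such a box, against 9.42% of all windows. The Acta2 window, chr1:241172454-241172753 on the minus strand, is shown because Acta2 is one of the genes that set the choice. Its 2 boxes, in capitals, began 134 and 84 bases before the start:
Acta2: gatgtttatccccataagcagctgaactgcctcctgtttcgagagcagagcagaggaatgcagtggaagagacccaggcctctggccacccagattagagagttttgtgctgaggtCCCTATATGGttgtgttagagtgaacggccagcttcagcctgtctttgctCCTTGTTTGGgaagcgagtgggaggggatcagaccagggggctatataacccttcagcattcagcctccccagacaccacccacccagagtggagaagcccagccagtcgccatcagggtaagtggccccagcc
A match is a run of letters and not a measured binding site, and a window without one says nothing of the gene's control.

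The depth of a library, as total counts on named genes, was 5422118 to 10857477 in TUMOUR STD, 3020821 to 10516783 in CHEMO STD and 3035841 to 9119394 in CHEMO FO. CHEMO STD 1 and 2 differed by little more than sampling noise, with a chi-square per gene of 2.23 against 13.7 to 255 in the other 58 pairs within a group, and their counts were summed into 1 sample, which left 19 samples. CHEMO FO 18 stood apart. Its summed level of skeletal fibre genes was 126332 CPM (counts per 1000000 of the scaled library total), against 203777 to 249859 in the rest of CHEMO FO, and its macrophage genes summed to 565 CPM, against 140 to 228. TUMOUR STD 10 held keratin transcripts, with a summed keratinocyte level of 548 CPM against 12.3 to 17.4 in the other TUMOUR STD samples, and CHEMO FO 16 held 124 CPM. The summed pair was the highest of CHEMO STD in fibroblast genes, at 11214 CPM with 5442 next, and in Schwann cell genes, at 468 CPM with 320 next. Results that rest on CHEMO FO 18 or TUMOUR STD 10 are therefore also given without them. The lists of other genes are not given without the summed pair.

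Myh11 encodes the heavy chain of smooth muscle myosin, the motor that defines the lineage. Its level in TUMOUR STD 8 to 12 was 125, 110, 103, 72.7 and 64.3 CPM (mean 95 ± 25.6, SD, n = 5). In CHEMO STD it ran from 29.9 through a median of 53.6 to 62.6 CPM (49.9 ± 12.2, n = 6). In CHEMO FO it ran from 35.2 through 48.3 to 79.2 CPM (50.5 ± 14.4, n = 8). Each of the 6 CHEMO STD samples lay below the lowest TUMOUR STD sample, whereas CHEMO FO 17, the highest of its arm, reached into the TUMOUR STD range. The log2 fold change was −0.93 (SE 0.217) in CHEMO STD versus TUMOUR STD, 1.91-fold lower, and −0.91 (SE 0.201) in CHEMO FO versus TUMOUR STD, 1.88-fold lower. Without CHEMO FO 18 the second value was −0.84, and without TUMOUR STD 10 the 2 values were −0.90 and −0.89.

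Acta2 and Actg2 encode the vascular and the enteric smooth muscle actin, the thin filament on which that motor pulls. Acta2 stood at 21.7, 36.8, 27.3, 13.4 and 18.6 CPM in TUMOUR STD 8 to 12 (mean 23.6 ± 8.97). In CHEMO STD it ran from 6.11 through 8.35 to 17.1 CPM (10.7 ± 4.82), and in CHEMO FO from 6.98 through 13.7 to 17 CPM (12.9 ± 3.24). TUMOUR STD 11 was the one control sample within the range of either chemotherapy arm. The fold change of Acta2 was −1.11 on the log2 scale (SE 0.277, 2.16-fold lower) in CHEMO STD and −0.89 (SE 0.258, 1.85-fold lower) in CHEMO FO. Actg2 rested on few reads, with 5 to 26 counts per sample in TUMOUR STD and, in CHEMO STD, 2 to 4 apart from the 39 of the summed pair. Its means were 2.02 ± 0.724, 0.806 ± 0.602 and 1.29 ± 1.03 CPM in TUMOUR STD, CHEMO STD and CHEMO FO, with samples of each chemotherapy arm inside the control range. The log2 fold changes of Actg2 were −1.14 (SE 0.545) and −0.82 (SE 0.516). Skeletal actin Acta1, at a mean of 46233 CPM over all samples, encodes an actin nearly identical to that of Acta2, and the treatment of reads that fit more than 1 gene is not stated. The log2 fold change of Acta1 was −0.07 and 0.09 in the same comparisons.

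Tagln, the actin-binding protein SM22, and Cnn1, calponin, lie along the thin filament. Tagln stood at 66.2, 49.8, 55.0, 45.4 and 48.9 CPM in TUMOUR STD 8 to 12 (53.1 ± 8.13). In CHEMO STD it ran from 19.7 through 34.1 to 39.9 CPM (31.7 ± 7.44), and in CHEMO FO from 13.4 through 33.2 to 55.4 CPM (34.7 ± 13.7). As with Myh11, no CHEMO STD sample reached the lowest control, and in CHEMO FO samples 16 and 17 did. Its log2 fold changes were −0.74 (SE 0.251) and −0.62 (SE 0.234), and without CHEMO FO 18 the latter was −0.48. Cnn1 was close to the limit of detection, with 0 to 23 counts per sample. No count was found in CHEMO STD 4 or in CHEMO FO 15, which allows up to 0.318 and 0.756 CPM for counting error alone (3 counts of the library). Its means were 1.48 ± 0.550, 0.876 ± 0.487 and 1.18 ± 0.869 CPM, and in a fit without the filter its log2 fold changes were −0.75 (SE 0.619) and −0.32 (SE 0.571).

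Mylk encodes myosin light chain kinase, the calcium-driven switch of contraction, and Myl9 encodes the regulatory light chain that it phosphorylates. Mylk stood at 46.8, 53.5, 76.6, 36.2 and 60.2 CPM in TUMOUR STD 8 to 12 (54.7 ± 15.1). It ran from 22.2 through 31.5 to 52.9 CPM in CHEMO STD (33.7 ± 10.8) and from 22.3 through 33.3 to 51.7 CPM in CHEMO FO (34.2 ± 9.56). The summed pair in CHEMO STD and sample 13 in CHEMO FO were the highest of their arms, and both lay within the control range. Its log2 fold changes were −0.68 (SE 0.225) and −0.69 (SE 0.211), and without TUMOUR STD 10, the highest control, they were −0.53 and −0.54. Myl9 stood at 34.7, 31.9, 38.5, 50.05 and 26.2 CPM in TUMOUR STD 8 to 12 (36.3 ± 8.92), at 18.3 to 33.8 in CHEMO STD (median 23.6) and at 6.26 to 32.4 in CHEMO FO (median 26.7). Both arms overlapped the controls. The log2 fold change of Myl9 was −0.52 (SE 0.282) in CHEMO STD and −0.62 (SE 0.264) in CHEMO FO, and the latter was −0.45 without CHEMO FO 18.

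Lmod1, which nucleates actin filaments, Smtn, an actin-binding protein of contractile smooth muscle, and Synpo2, which binds actin and alpha-actinin, differed less between the groups. Lmod1 averaged 83.6 ± 12.0 CPM in TUMOUR STD, 80.6 ± 11.3 in CHEMO STD and 84.3 ± 31.7 in CHEMO FO. Smtn averaged 37.8 ± 7.50, 31.5 ± 4.18 and 31.5 ± 12.2 CPM. Synpo2 averaged 594 ± 67.1, 513 ± 67.4 and 577 ± 215 CPM. The ranges of these 3 genes overlapped between all groups, and the SD was widest in CHEMO FO for each of them. Against TUMOUR STD the log2 fold changes of Lmod1 were −0.05 (SE 0.291) in CHEMO STD and 0.01 (SE 0.275) in CHEMO FO. Those of Smtn were −0.26 (SE 0.281) and −0.28 (SE 0.264), and those of Synpo2 were −0.21 (SE 0.270) and −0.04 (SE 0.254). Without CHEMO FO 18 the CHEMO FO values were 0.19 for Lmod1, −0.10 for Smtn and 0.12 for Synpo2.

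**Figure D1:**
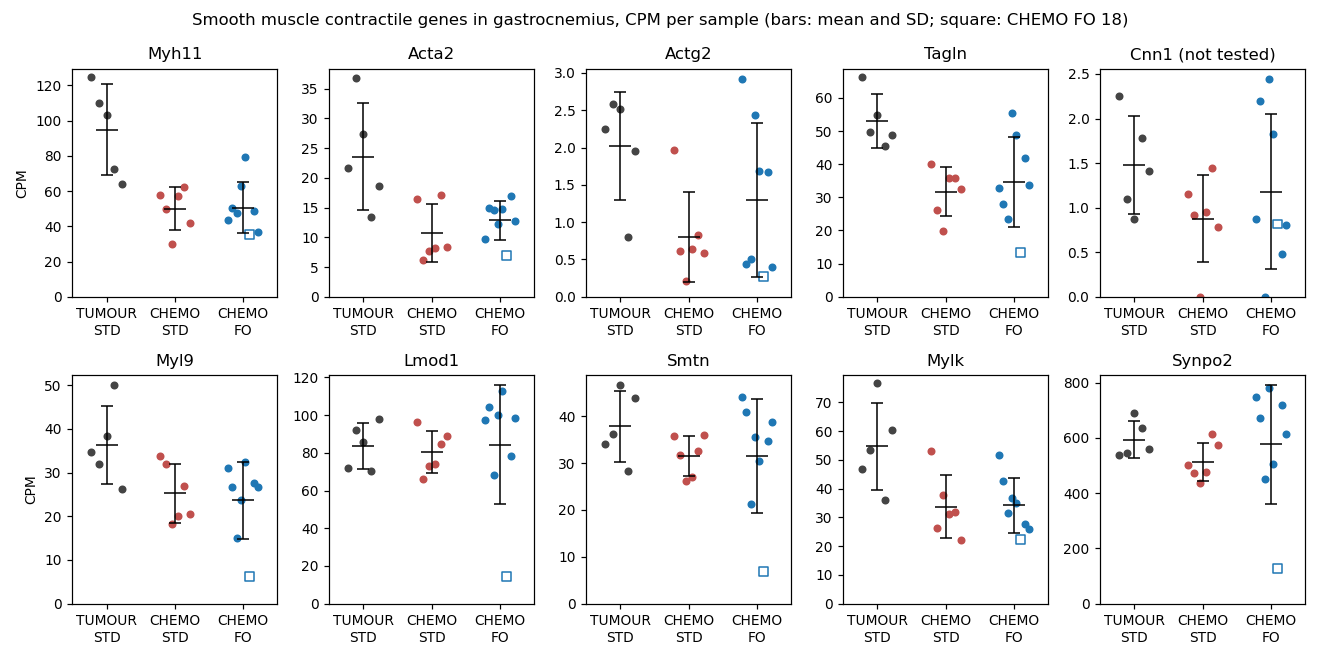
Level of each gene in CPM (y axis, from 0, own scale per gene) in the 19 samples by group, with the mean and SD as bars and CHEMO FO 18 as an open square. The 6 CHEMO STD samples of Myh11 (29.9 to 62.6 CPM) and of Tagln (19.7 to 39.9 CPM) lie below the lowest control, and for Lmod1 the square at 14.4 CPM lies far below the rest of its group.

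For a count over the genes, a call was a p below 0.05, unadjusted, with a change of at least 1.5-fold, the thresholds of the study's methods, in edgeR's quasi-likelihood test. In CHEMO STD versus TUMOUR STD, 5 of the 9 tested genes were called lower (Myh11, Acta2, Actg2, Tagln and Mylk) and 0 higher, where 1.45% of all tested genes were called lower and 0.93% higher. In CHEMO FO versus TUMOUR STD, 5 of 9 were called lower (Myh11, Acta2, Tagln, Myl9 and Mylk) and 0 higher, against 2.51% and 1.09% of all genes. Nothing is read from these counts, since the genes were chosen on the same comparisons, which also share their 5 control samples. The samples of the groups did not overlap, with chemotherapy lower, for 2 of the 9 genes in CHEMO STD versus TUMOUR STD (Myh11 and Tagln; 0.316% of all genes) and for 0 of 9 in CHEMO FO versus TUMOUR STD (0.171% of all genes). In CHEMO STD, Actg2 was the called gene nearest to the p threshold, at 2.20-fold lower. Nearest to the fold threshold, Mylk was called at 1.60-fold lower and Myl9 was not at 1.43-fold lower. In CHEMO FO both Tagln and Myl9 were called at 1.54-fold lower, while Actg2, at 1.76-fold lower with its wider error, was not. No gene of the 11716 passed an adjusted p of 0.05 in edgeR in either comparison. By unadjusted p alone 762 and 1059 genes were under 0.05, and DESeq2 gave 0 and 11 genes past the adjusted threshold. The median log2 fold change of the 9 tested genes was −0.68 and −0.62, beside 0.00 over all tested genes in both comparisons. Without CHEMO FO 18 the called genes in CHEMO FO numbered 3, Tagln and Myl9 being lost, and without TUMOUR STD 10 those in CHEMO STD numbered 3, Actg2 and Mylk being lost.

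**Figure D2:**
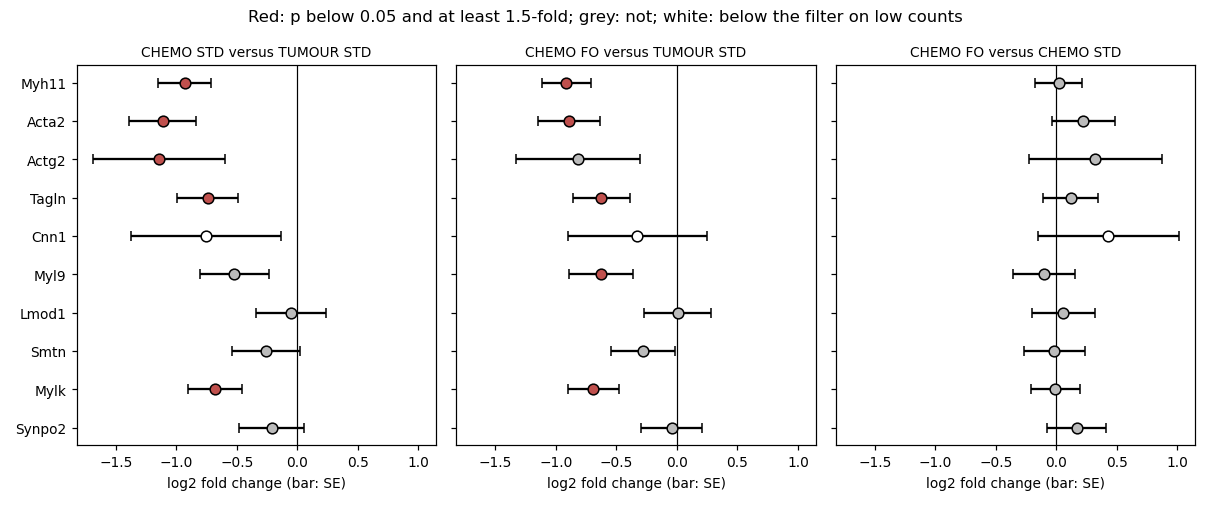
Log2 fold change (x axis) of each gene in the 3 comparisons, with its SE as a bar, red where called, grey where not and white for Cnn1, which did not pass the filter on low counts. Values lie between −1.14 and 0.01 against TUMOUR STD and between −0.10 and 0.43 for CHEMO FO versus CHEMO STD.

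The diet effect, CHEMO FO versus CHEMO STD, asks whether fish oil given with chemotherapy changed the level of the contractile genes. Myh11 and Acta2 set the choice by being low in both arms, and a choice of that kind favours a small difference between the arms, so their values here are a description with no test. None of the 9 tested genes was called lower or higher, where 1.05% of all tested genes were called lower and 0.615% higher. Samples did not overlap between the 2 arms for 0 of the 9 genes in either direction, against 0.0256% (CHEMO FO lower) and 0.0427% (CHEMO FO higher) of all genes. In edgeR's test, adjusted by Benjamini-Hochberg over 11716 genes, the smallest adjusted p of the 7 other tested genes was 0.975, and 0 of all genes passed, with 527 under an unadjusted p of 0.05 and 0 past the adjusted threshold in DESeq2.

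Among those 7 genes the log2 fold change of Mylk was −0.01 (SE 0.205, 95% interval −0.43 to 0.42), an interval that ends short of a 1.5-fold change in either direction. Tagln was at 0.12 (−0.36 to 0.59) and Synpo2 at 0.17 (−0.33 to 0.67). Lmod1 was at 0.06 (−0.48 to 0.60), Smtn at −0.02 (−0.54 to 0.51) and Myl9 at −0.10 (−0.64 to 0.43). Actg2, which has few counts, was at 0.32 with an interval of −0.81 to 1.46, which leaves a change beyond 1.5-fold in either direction inside it. Of the genes that set the choice, Myh11 was at 0.02 (SE 0.196) and Acta2 at 0.22 (SE 0.259). The median of the 9 was 0.06. Without CHEMO FO 18 every one of the 9 values lay above 0, from 0.06 for Myl9 and Mylk to 0.52 for Actg2, and none was called. Synpo2, at 0.32 there, had an unadjusted p below 0.05 in edgeR's test and was short of a 1.5-fold change.

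CHEMO FO 18 was the lowest of its arm for 9 of the 10 genes, the exception being Cnn1. The gap differed widely from gene to gene. Lmod1 stood at 14.4 CPM there, against 68.4 to 113 in the other 7 samples, whose mean was 6.54-fold higher. Actg2, with 3 counts, stood at 0.272 CPM (5.29-fold below the mean of the others), Smtn at 6.80 CPM (5.16-fold), Synpo2 at 126 CPM (5.07-fold) and Myl9 at 6.26 CPM (4.18-fold). Tagln, at 13.4 CPM, was 2.81-fold below the others. The gap was smaller for Acta2 (6.98 CPM, 1.96-fold), Mylk (22.3 CPM, 1.61-fold) and Myh11 (35.2 CPM, 1.499-fold). The lower skeletal fibre sum and the higher macrophage sum of this sample move with these values, and their part in them was not tested. Of the macrophage markers, Cd163 and Mrc1 had an SD of 84.4 and 43.2 CPM in CHEMO FO. The SD of the others was 1.42 to 10.2 CPM, so the high sum does not stand for the whole list.

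**Figure D3:**
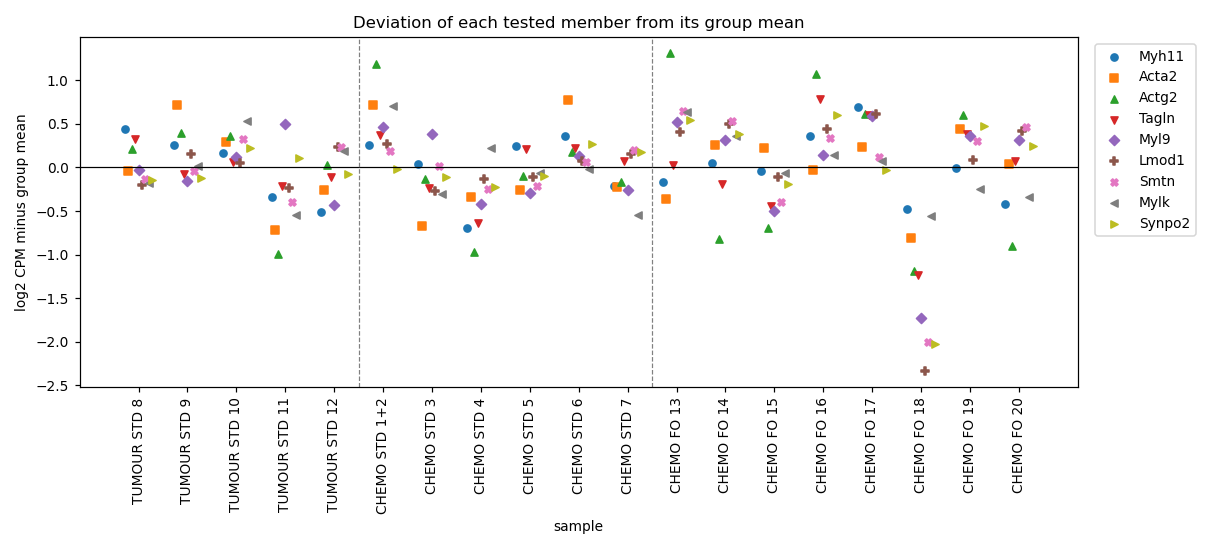
Log2 CPM (prior count 2) minus the group mean (y axis) for each of the 9 tested genes in each of the 19 samples (x axis), groups being parted by dashed lines. Every gene lies below 0 in CHEMO FO 18, with Lmod1 (14.4 CPM), Synpo2 (126 CPM) and Smtn (6.80 CPM) the furthest down.

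Across the 19 samples, with group means removed, the log2 CPM of the 9 tested genes correlated pairwise with a median Pearson r of 0.51 (36 pairs, 0.25 to 0.94), and 19 pairs exceeded 0.5. Without CHEMO FO 18 the median was 0.35 (−0.03 to 0.71) and 7 pairs exceeded 0.5. The points share a library, its depth and its scaling, so these values are descriptions. Myh11 and Tagln were at 0.71 with all samples and 0.70 without that one, Actg2 and Tagln at 0.74 and 0.71, Myh11 and Actg2 at 0.61 and 0.55, and Myh11 and Acta2 at 0.57 and 0.51. Mylk was at 0.58 and 0.51 with Actg2, at 0.49 and 0.45 with Lmod1 and at 0.51 and 0.43 with Smtn. Acta2 was at 0.51 and 0.33 with Tagln and at 0.45 and 0.35 with Actg2. Lmod1, Smtn and Synpo2 gave 0.91 to 0.94 among themselves, which became 0.67 for Lmod1 with Smtn, 0.66 for Smtn with Synpo2 and 0.29 for Lmod1 with Synpo2. Myh11 and Smtn stood at 0.27 and −0.03. The lowest pair with all samples was Myh11 with Mylk, at 0.25 and 0.15.

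The correlation with the summed level of skeletal fibre genes differed from gene to gene. It was 0.91 for Smtn and for Synpo2, and 0.68 and 0.65 without CHEMO FO 18, while Lmod1 was at 0.87 and 0.47, Myl9 at 0.78 and 0.34 and Tagln at 0.60 and 0.08. Mylk was at 0.55 and 0.48 and Actg2 at 0.47 and 0.29. Myh11 was at 0.15 and −0.22, and Acta2 at 0.37 and 0.02. With the summed endothelial level Acta2 was at 0.70 and 0.65, Actg2 at 0.64 and 0.58 and Myh11 at 0.50 and 0.44. Mylk was at 0.56 and 0.49 with the endothelial level, Tagln at 0.54 and 0.43, Synpo2 at 0.45 and 0.34, Smtn at 0.41 and 0.22, Lmod1 at 0.36 and 0.08 and Myl9 at 0.34 and 0.10. Smtn, Synpo2, Lmod1 and Myl9 had a higher r with the fibre genes than with the endothelial ones, with and without that sample. Other summed levels also moved with them. With the fibroblast level Smtn was at 0.56 and 0.60, Lmod1 at 0.48 and 0.53, Myl9 at 0.44 and 0.31 and Synpo2 at 0.42 and 0.32. Mylk had its highest r there, at 0.72 and 0.68. With the pericyte level Smtn was at 0.77 and 0.31, Synpo2 at 0.75 and 0.21, Lmod1 at 0.72 and 0.02 and Myl9 at 0.63 and 0.05. These are descriptions over points that share a library, and the cells that held these transcripts were not resolved.

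**Figure D4:**
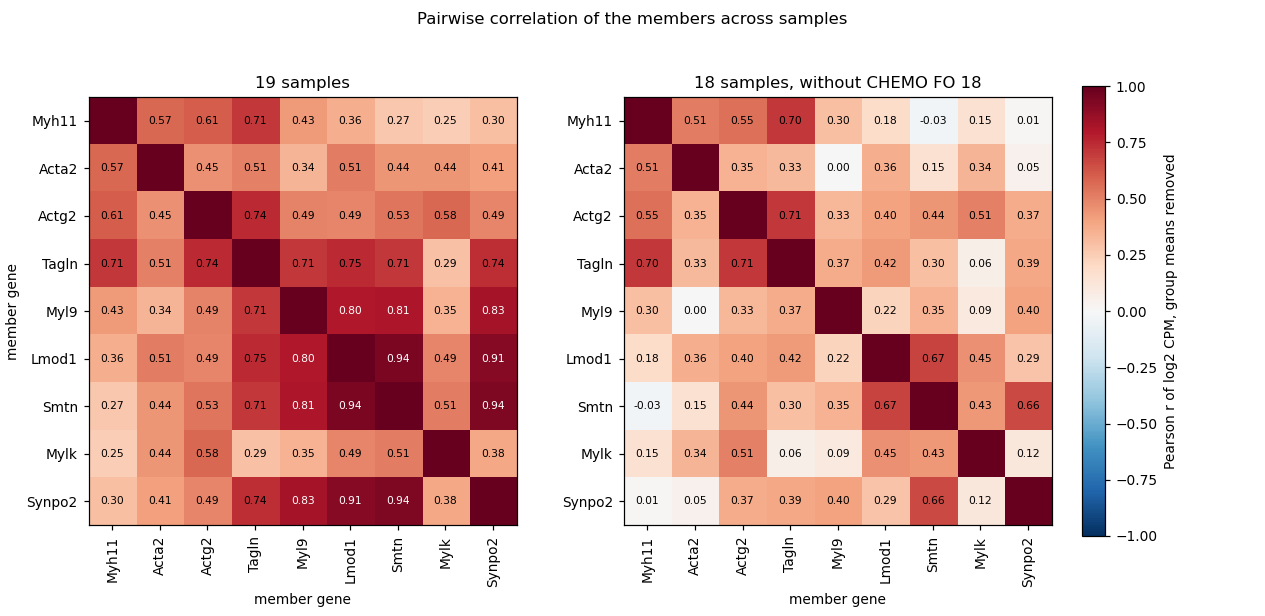
Pearson r of log2 CPM between the 9 tested genes, group means removed, over 19 samples (left) and over 18 without CHEMO FO 18 (right), on a colour scale from −1 to 1. The block of Lmod1, Smtn and Synpo2, at 0.91 to 0.94 on the left, runs from 0.29 to 0.67 on the right, while Myh11 with Tagln is at 0.71 and 0.70.

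Of all other genes, those outside the lists whose pattern was nearest to the mean of the 9 standardised genes were Mmp15 (r = 0.91), Fitm2 (0.91), Cdh13 (0.91), Fam189a2 (0.89), Daam2 (0.89), Sod3 (0.89), Pde4a (0.88) and Sema6c (0.88), over 19 samples with group means removed. The order rests on CHEMO FO 18. Without it they ranged from 0.54 for Pde4a (rank 1069) to 0.81 for Fitm2 (rank 9), and none was among the 8 nearest, which were then led by Abhd4 (r = 0.84, n = 18, against −0.13 with all samples).

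Other genes of the same machinery were counted in the same fit. Of 16 further contractile and cytoskeletal genes, all tested, 1 was called lower and 0 higher in each comparison with TUMOUR STD, and it was Itga8, the integrin subunit of contractile smooth muscle (log2 fold change −0.61, SE 0.287, in CHEMO STD and −0.66, SE 0.272, in CHEMO FO). Its means were 11.3, 7.26 and 7.33 CPM in TUMOUR STD, CHEMO STD and CHEMO FO. It was no longer called in CHEMO STD without TUMOUR STD 10 (−0.57) or in CHEMO FO without CHEMO FO 18 (−0.53). The tropomyosins Tpm1 and Tpm2, which had the highest mean CPM of this list, are also fibre genes, and Tpm1 was at 0.09 and 0.06. The list's median was −0.11 and −0.10. Of 12 genes of the RhoA and myosin phosphatase branch, which sets the calcium sensitivity of contraction, 0 were called in either direction in any comparison with all samples, with medians of −0.10 and −0.05. Among them Ppp1cb, the catalytic subunit of myosin phosphatase, was at 0.30 and 0.15, and its targeting subunit Ppp1r12b at −0.19 and −0.49, the latter being called when TUMOUR STD 10 was left out.

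Of 9 tested regulators of the programme, 1 was called lower in CHEMO STD and 0 in CHEMO FO. It was Notch3, the receptor of arterial smooth muscle and pericytes, with a log2 fold change of −0.77 (SE 0.308) in CHEMO STD and −0.51 (SE 0.288) in CHEMO FO. Without TUMOUR STD 10 the CHEMO STD value was −0.46 and was not called. Of the other regulators, Srf, Smad3 and Myocd are named here, and none of them passed the thresholds. Srf, serum response factor, was at 97.9, 94.9 and 93.9 CPM in the 3 groups (log2 fold changes −0.04 and −0.06). Smad3 was at −0.22 and −0.21. The coactivator Myocd, with at most 99 counts in a sample, was at −0.24 (SE 0.336) and −0.44 (SE 0.319).

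Of 17 tested receptors, channels and enzymes of vascular tone, 1 was called lower in each comparison with TUMOUR STD and 0 higher. In CHEMO STD it was Ednra, the endothelin A receptor, at −0.67 (SE 0.211), whose value in CHEMO FO was −0.12 (SE 0.196). In CHEMO FO it was Cacna1h, a T-type calcium channel, at −0.84 (SE 0.307), whose value in CHEMO STD was −0.36 (SE 0.320). Neither passed the thresholds between the 2 chemotherapy arms. Ednra was 0.55 higher in CHEMO FO (SE 0.196), short of the 1.5-fold threshold alone. Its p was 0.0099 unadjusted and 0.974 adjusted by edgeR's quasi-likelihood test. Ednra was named for its low level in CHEMO STD, whose samples this comparison shares, so nothing is read from that p. Abcc9, the sulphonylurea receptor subunit, which with Itpr1 had the highest mean CPM of this list, was at −0.30 and −0.52, and Itpr1, the calcium release channel, at −0.29 and −0.25. The list's median was −0.30 and −0.36.

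Relatives of the 10 genes in other cell types were read for comparison. Of 19 that were tested, 1 was called lower in CHEMO STD and 0 in CHEMO FO. It was Myh9l1, at −0.86 (SE 0.318) and −0.51 (SE 0.297), and without TUMOUR STD 10 the first was −0.58 and was not called. The cytoplasmic actin Actb was at −0.23 and −0.29, the non-muscle myosin Myh10 at −0.27 and −0.48, and the skeletal light chain kinase Mylk2 at −0.30 and −0.14. Tagln2 was at −0.04 and −0.10, Cnn3 at −0.33 and −0.28, and Lmod3, the leiomodin of skeletal fibres, at 0.24 and −0.09. The list's median was −0.23 and −0.14.

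Markers of neighbouring cells move with these values in part. Of 11 tested pericyte markers, 3 were called lower in CHEMO STD (Cox4i2, Cspg4 and Notch3, the last also in the list of regulators) and 1 in CHEMO FO (Cox4i2). Without TUMOUR STD 10 only Cox4i2 of the list was called in CHEMO STD, Cspg4 being at −0.52 in place of −0.77. Cox4i2, a subunit of cytochrome oxidase, was at −0.88 (SE 0.295) and −1.23 (SE 0.284), and Rgs5, a widely used pericyte marker, at 0.01 (SE 0.195) and −0.17 (SE 0.183). The 12 pericyte genes summed to 544 to 748 CPM in TUMOUR STD, 429 to 568 in CHEMO STD and 297 to 614 in CHEMO FO, with CHEMO FO 18 the lowest, and no marker of the list was at 0 in every sample. Of 10 tested endothelial markers 0 were called, with medians of −0.19 and −0.24 and sums of 323 to 433, 277 to 380 and 274 to 374 CPM. Flt1, with the highest mean CPM of the endothelial list, was at −0.21 and −0.10, and Abcc9 had the highest of the pericyte list. Their part in the levels of the contractile genes was not tested. Fibroblast markers numbered 7 tested, of which 0 were called in CHEMO STD and 1 lower in CHEMO FO. It was Col1a1, a collagen chain with the highest mean CPM of its list, at −1.37 (SE 0.599), and without TUMOUR STD 10 it was at −1.10 and was not called. Of 8 tested skeletal fibre genes 1 was called lower in each comparison, Myh7, the slow myosin (−0.94 and −0.61), and its call in CHEMO FO was lost without CHEMO FO 18 (−0.51) or TUMOUR STD 10 (−0.45). Myh4, a fast myosin with the highest mean CPM of the fibre list, was at −0.17 and −0.10. Adipocyte markers gave 0 calls of 7, with Lpl, the highest of them, at 0.08 and 0.14. Schwann cell markers gave 0 calls of 6 in CHEMO STD versus TUMOUR STD, 2 lower in CHEMO FO versus TUMOUR STD and 4 lower in CHEMO FO versus CHEMO STD. Without CHEMO FO 18 these were 0 and 3, and without TUMOUR STD 10, whose Schwann sum of 490 CPM was the highest of its group, 0 and 4, with 2 higher in CHEMO STD versus TUMOUR STD. Pmp22, with the highest mean CPM of them, was at −0.17 and −0.43 against TUMOUR STD. The median Schwann sums lay close together, at 151, 142 and 138 CPM in TUMOUR STD, CHEMO STD and CHEMO FO. In CHEMO STD the summed pair stood at 468 CPM and the next sample at 320 CPM. The Schwann calls are not given without the pair, so no diet effect is read from them. Of 6 macrophage markers Cd163 alone was called, higher in CHEMO FO versus TUMOUR STD (1.22, SE 0.490). It rested on CHEMO FO 18, without which it was at 0.35 (SE 0.240) and was not called, and Csf1r, with the highest mean CPM of the list, was at −0.09 and −0.25. Of 2 tested keratinocyte markers, Dsp was called lower in both comparisons with TUMOUR STD, whose sample 10 holds the keratin transcripts, and without that sample it was at −0.22 and 0.64 and was not called.

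**Figure D5:**
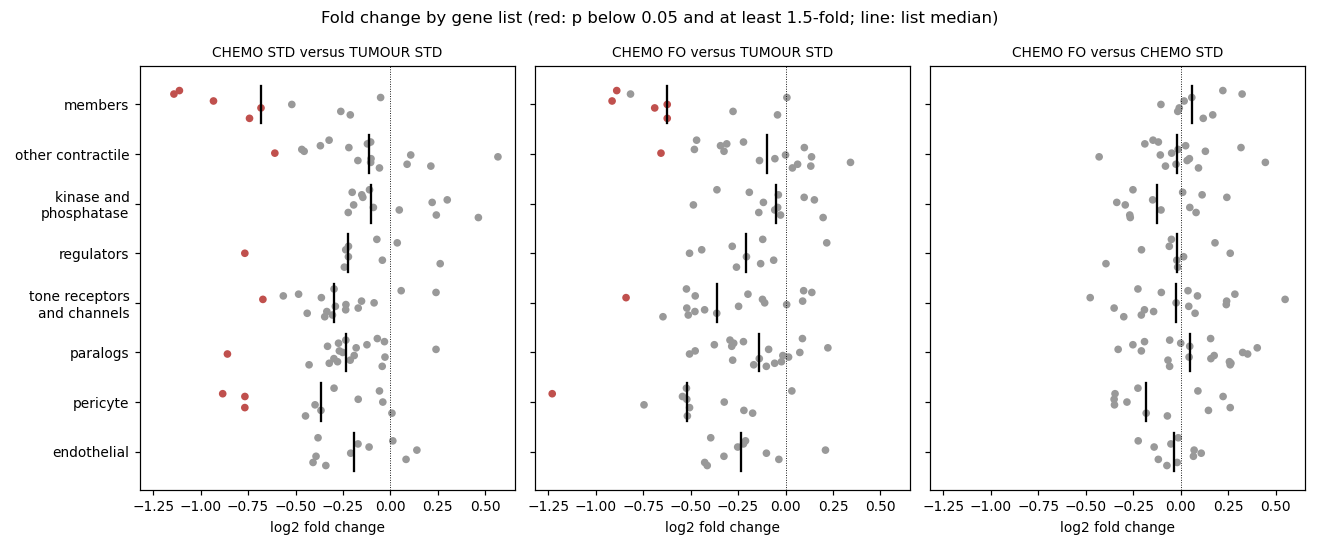
Log2 fold change (x axis) of the tested genes of 8 lists (rows) in the 3 comparisons, red where called, with each list's median as a black line. The medians of the 9 contractile genes lie at −0.68 and −0.62 against TUMOUR STD and at 0.06 for CHEMO FO versus CHEMO STD, beside −0.37, −0.52 and −0.18 for the pericyte markers.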

How the data were processed

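The authors trimmed reads with Trim Galore 0.4.1, aligned them to Rnor 6 with Tophat 2.0.10 and Bowtie2, and deposited raw counts by gene, whose counting settings (strand, shared reads) were not stated. Rows without a gene name (388, 0.102% to 0.272% of a library) were left out. Counts of CHEMO STD 1 and 2 were summed. The 3 groups were fitted together in edgeR 4.0.16 (R 4.3.3; default filter on low counts, TMM, quasi-likelihood test) after the code was tested on simulated data. CPM are on TMM-scaled totals, and correlations used log2 CPM with a prior count of 2. The labels do not say that samples of a group came from separate animals, whereas the study gives 5, 7 and 8 animals. With CHEMO STD 1 and 2 summed, CHEMO STD had 6 samples here. The p-values set a difference between groups against the spread between these samples. The genes, the 13 lists beside them and the tests were chosen with earlier results of these data known. Named genes were the 10 and the 8 genes most alike in pattern. In each list that is not of markers the called genes and the 2 of highest mean CPM were named. In marker lists it was the one of highest mean CPM and those at 0 (none was at 0 in every sample). Of the other relatives that passed the filter only a part was named. Others named (Myocd and Rgs5 among them) were chosen after their values were seen. CPM are not per length, since transcript lengths were not used here, so an order of mean CPM within a list served only to choose names. Alternatives were RLE or library-total scaling, DESeq2 1.42.0, voom (limma 3.58.1), other filters, the pair kept apart or left out, only the groups compared, a prior count of 0.5, and each library left out. The wider promoter search and the lists without CHEMO FO 18 or TUMOUR STD 10 were added after seeing the data. Figures used matplotlib 3.10.9.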

Additional observations from a re-analysis of the deposited data

Results flagged for a closer look

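In groups of 4 to 10 samples, 27 combinations of a tested gene and a group were checked for a sample whose gap to its nearest neighbour is large against the range of the group, and chance gives about 1 in 20. Actg2 in CHEMO STD had its highest sample, the summed libraries 1 and 2, at 1.96 CPM, against 0.210 to 0.826 CPM in the other 5 samples, which rest on 2 to 4 counts each. Lmod1 in CHEMO FO had its lowest sample, replicate 18, at 14.4 CPM, against 68.4 to 113 CPM in the other 7.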

How the results depend on the processing

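Myh11 and Acta2 set the choice of genes by being lower in these comparisons. They were called lower in both comparisons with TUMOUR STD under every alternative run. The alternatives refit the samples that made the choice, so nothing is read from those calls. With CHEMO STD 1 and 2 kept as separate samples, 3 genes were called in CHEMO STD versus TUMOUR STD in place of 5, Actg2 and Mylk being lost. With both left out, 6 were called there, and Actg2 was at −1.91 and Mylk at −0.86. With voom and sample weights, 6 were called in CHEMO STD versus TUMOUR STD and 2 in CHEMO FO versus TUMOUR STD, in place of 5 in each. Leaving out each library gave 3 to 5 called genes in CHEMO STD versus TUMOUR STD, 3 to 6 in CHEMO FO versus TUMOUR STD and 0 to 0 in CHEMO FO versus CHEMO STD. The call of Actg2 in CHEMO STD, which lay just inside the p threshold, was lost without any one of 12 libraries of the 20, with log2 fold changes of −1.16 to −0.90 in those fits. Mylk was lost there without CHEMO STD 7 or TUMOUR STD 10, and in CHEMO FO without TUMOUR STD 10. Tagln was lost in CHEMO FO without TUMOUR STD 8 or CHEMO FO 14, 15 or 18, and Myl9 without TUMOUR STD 11 or CHEMO FO 15 or 18. In these fits without a library, Mylk and Tagln kept an unadjusted p below 0.05 in edgeR's test and fell short of 1.5-fold. Actg2 kept the fold threshold and lost that of p. Myl9 fell short of 1.5-fold each time, and its p stayed below 0.05 only without CHEMO FO 18. Why the values moved was not tested.

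Over all genes, 279 were called in CHEMO STD versus TUMOUR STD, 422 in CHEMO FO versus TUMOUR STD and 195 between the chemotherapy arms. Without a filter the counts were 971, 1116 and 722, where more genes were tested, and with CHEMO STD 1 and 2 left out the first was 603. Leaving out each library gave 161 (without TUMOUR STD 10) to 529 (without TUMOUR STD 8), 273 (without CHEMO FO 18) to 584 (without TUMOUR STD 11), and 153 to 238.

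The diet effect of Synpo2 was at 0.32 without CHEMO FO 18 and at 0.31 with voom. In both fits its unadjusted p (edgeR's and limma's test) was below 0.05, but the change was short of 1.5-fold. The diet effect of genes near 0 changed sign under some alternatives. Myh11 was at −0.012 with library totals and at −0.0086 with the pair separate. Myl9 was at 0.011 with the pair left out and 0.14 with voom, Smtn at 0.027 and 0.16, and Mylk at 0.18 and 0.13, and at 0.0025 with DESeq2. Leaving out each library gave −0.11 to 0.10 for Myh11, −0.0025 to 0.25 for Tagln, −0.19 to 0.056 for Myl9, −0.012 to 0.23 for Lmod1, −0.094 to 0.15 for Smtn and −0.11 to 0.063 for Mylk. The CHEMO FO versus TUMOUR STD values of Lmod1 (−0.06 to 0.19) and Synpo2 (−0.12 to 0.12), and that of Lmod1 in CHEMO STD (−0.11 to 0.01), also crossed 0. The median correlation was 0.35 (without CHEMO FO 18) to 0.56. No paired analysis was possible because the groups share no replicate numbers.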
